A study of Arabidopsis thaliana with 4 samples.

Results

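Cytochrome P450s are haem enzymes that insert oxygen into small molecules and form one of the largest enzyme families of plants. Their members act in lignin, sterol and hormone synthesis and in the making of defence compounds, and in plants most receive their electrons from a membrane-bound P450 reductase. The CYP71B subfamily is a large plant group, many of whose genes lie side by side on the chromosome, and few of its enzymes have a known substrate.

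The genes described here are those whose symbol is CYP followed by 2 or 3 digits and a subfamily letter and which have a probe set assigned to 1 gene alone. There were 23 such genes, each with 1 probe set, of 13356 genes named that way on the array. The platform annotation gave no gene for 8730 of the 22746 probe sets besides controls. Below, a probe set of a gene's own means one that this annotation assigns to it alone, so a gene without one may still be on the array. Of them 19 belong to CYP71B, so the values below are mostly those of that subfamily. The other 4 are CYP51G2, CYP78A9, CYP79A2 and CYP84A4. The RefSeq annotation (assembly TAIR10.1, used for names and gene order alone) holds 236 P450 genes by the same form of symbol, 36 of them CYP71B. The P450s of brassinosteroid, abscisic acid, jasmonate, carotenoid and cuticle synthesis are not analysed here.

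The study hybridised RNA of Arabidopsis thaliana to 4 ATH1 arrays, 1 for each of 4 groups, so no group has a replicate. The plants were wild type (Col-0) or sfr6, a mutant obtained by EMS mutagenesis in Col-0. The gene SFR6 is known to encode MED16, part of Mediator, a protein assembly through which transcription factors act on RNA polymerase II. All plants grew for 7 days on agar and then spent 24 h in a high-light cabinet (240 microEinsteins, 16 h light and 8 h dark). Wild type and sfr6 light samples then stayed in the light for 3 h, and wild type and sfr6 dark samples were wrapped in foil for 3 h. Values are MAS5 signals, a brightness on a linear scale, and the number of arrays limits their precision. Signals under the floor of 22.1, the 40th percentile of all signals, were set to it before log2 was taken. A fold against a signal under the floor is therefore written as at least that many fold.

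The labels call the tissue cell culture. Of 20 listed green-tissue markers 4 had a probe set of their own, and they summed to signals of 12790 in wild type light, 11790 in wild type dark, 10840 in sfr6 light and 10290 in sfr6 dark. Of 12 root markers 4 had one, and they summed to 3073, 2131, 2668 and 1869 in that order. PYK10 alone made up most of each sum, at 3004, 2081, 2562 and 1823. Of these root markers, PYK10 and EXPA18 fell in darkness (average log2 effects -0.51 and -0.82, limma adjusted p 0.0083 and 0.013), the latter on floored signals. The 1 measured marker of pollen and seed, AGL66, was under the floor on all 4 arrays. The control for 25S ribosomal RNA had signals of 121.6 in wild type light, 364.4 in wild type dark, 119.8 in sfr6 light and 1321 in sfr6 dark. In the same order, the 3' control for GAPDH read 1164, 850.8, 1552 and 1059, and its 5' control 1026, 629.1, 1426 and 958.3, lower in the dark in both genotypes. PYK10, EXPA18 and the GAPDH controls were thus lower in the dark, and the 25S control was higher. Among the 13 P450 genes tested below, 5 fell, where 17.8% of all probe sets tested did, and 1 rose, where 15.4% did. The part of these markers and controls in those results was not tested. EXPA7, another root marker, did not pass, at -0.61, and AGL42 was under the floor on all 4 arrays.

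Of the 23 P450 genes, 13 reached the floor on at least 1 array (56.5%, against 66.5% of all probe sets), and 8 reached it on all 4 (34.8%, against 53.4%). The other 10 were under the floor on every array, so no fold is given for them. Among these was CYP79A2, which turns phenylalanine into the oxime that starts benzylglucosinolate synthesis. Its signals lay between 0.746 and 1.39. CYP51G2, which RefSeq lists as a transcribed pseudogene related to the sterol demethylase gene, read 7.50 in wild type light, 4.33 in wild type dark, 6.57 in sfr6 light and 12.4 in sfr6 dark. CYP71B27, the other member listed as a transcribed pseudogene, read 14.1, 6.60, 8.99 and 5.95 in that order. CYP71B16, CYP71B21, CYP71B30P and CYP71B31 never exceeded 3.28. CYP71B38 came closest to the floor of the 10 in the light, at 17.3 in wild type and 16.2 in sfr6, against 12.4 and 7.97 in the dark. CYP71B22 came closest in wild type dark, at 18.5, with 11.9 in sfr6 dark, against 7.02 and 7.17 in the light. CYP71B25 read between 1.35 and 12.9.

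**Figure D1:**
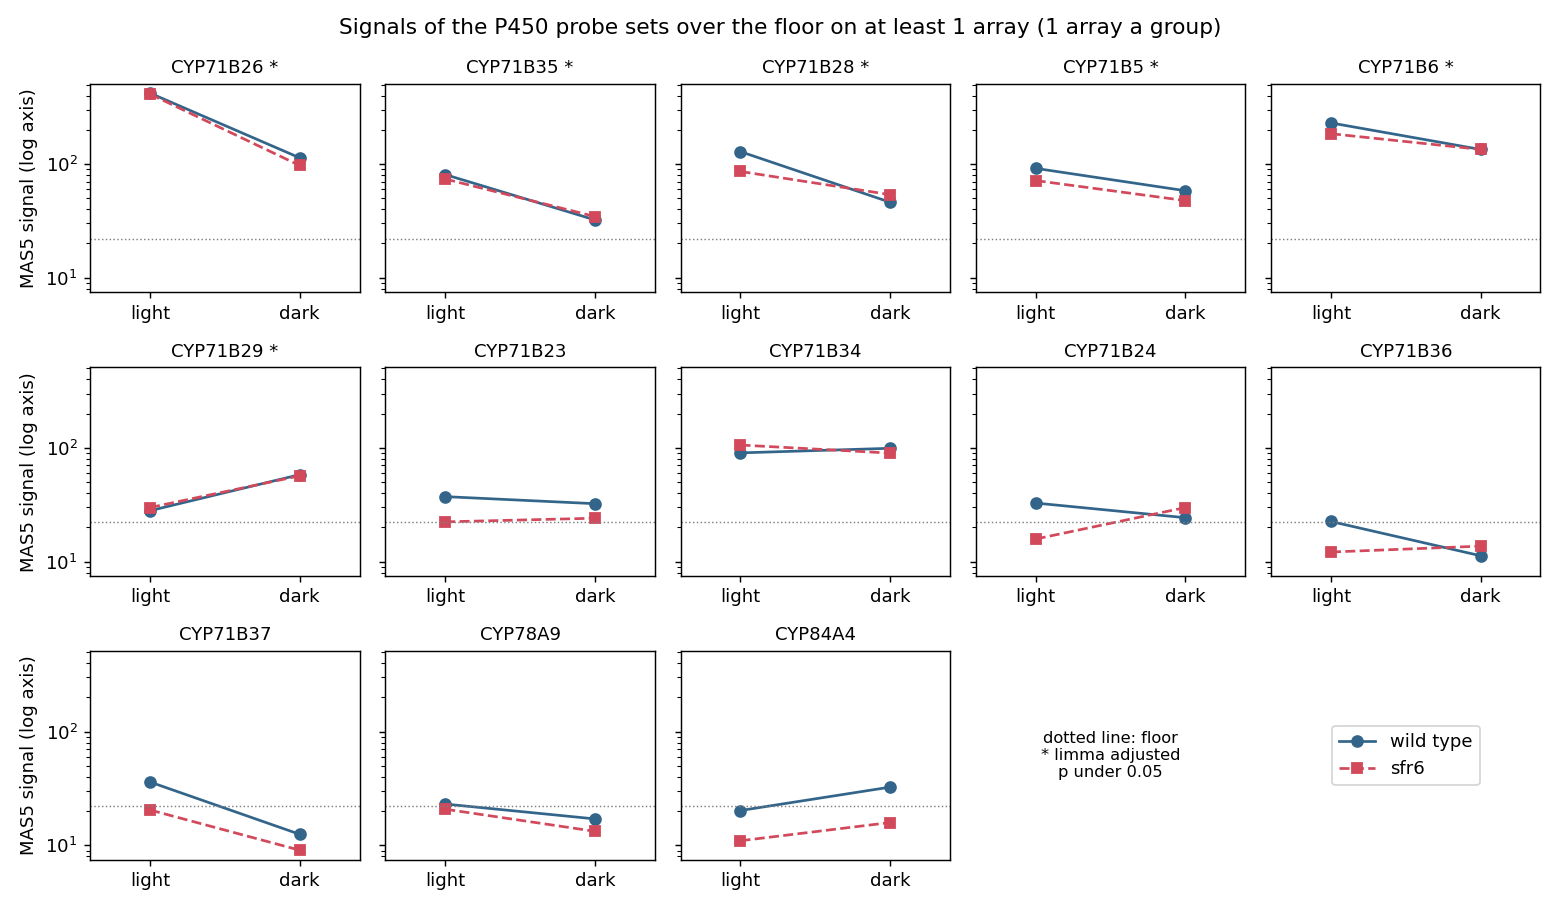
MAS5 signal (log axis) of the 13 P450 probe sets that reached the floor on at least 1 array, in light and dark, with wild type as circles and sfr6 as squares. Each point is 1 array, the dotted line is the floor of 22.1, and stars mark the 6 probe sets that passed for the average dark effect. CYP71B26 has dark signals far below its light signals in both genotypes, CYP71B29 rises in both, and the lines of wild type and sfr6 lie close to each other in most panels.

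The first question is how the P450 genes respond to 3 h of darkness. CYP71B26, CYP71B35, CYP71B28, CYP71B6 and CYP71B5 fell, and CYP71B29 rose. That is 5 that fell of 13 tested, where 17.8% of all 15121 probe sets tested fell, and 1 that rose, where 15.4% of all rose. Effects are averages over wild type and sfr6, tested with limma in an additive model of darkness and genotype and adjusted over all probe sets tested. With 1 array a group, the fit has 1 residual degree of freedom, the disagreement between the genotypes' responses. To it limma adds a variance estimated from all probe sets tested, with 5.15 prior degrees of freedom. The SEs and p-values therefore rest mostly on other probe sets and do not measure the spread between plants.

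CYP71B26 had signals of 420.1 in wild type light, 113.3 in wild type dark, 411.8 in sfr6 light and 97.0 in sfr6 dark. Both dark arrays were far below both light arrays, and the genotypes nearly coincided. The dark signal was 3.71-fold lower in wild type, and in sfr6 4.25-fold. The average log2 effect was -1.99 ± 0.13 (SE), with a limma adjusted p of 0.00034, and it ranked 130 from the lowest among the 15121 effects.

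CYP71B35 had signals of 80.7 in wild type light, 32.2 in wild type dark, 73.7 in sfr6 light and 34.5 in sfr6 dark. Its light and dark arrays did not overlap. The dark signal was 2.50-fold lower in wild type, and in sfr6 2.14-fold, with an average log2 effect of -1.21 ± 0.18 (limma adjusted p 0.0049). With the floor at the 60th percentile of all signals, which both dark signals lie under, the effect was -0.41.

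CYP71B28 had signals of 128.4 in wild type light, 46.1 in wild type dark, 85.9 in sfr6 light and 53.7 in sfr6 dark. Both dark arrays were again lower than both light arrays, but the light signal was higher in wild type than in sfr6. Darkness went with a 2.79-fold lower signal in wild type, and in sfr6 a 1.60-fold lower one. The average log2 effect was -1.08 ± 0.23 (limma adjusted p 0.016).

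CYP71B6 oxidises indole-3-acetonitrile, a compound of the pathways to camalexin and other indole defence products. Its signals were 229.7 in wild type light, 134.2 in wild type dark, 184.6 in sfr6 light and 134.3 in sfr6 dark. The dark signals of the genotypes were almost equal and lay below both light signals. The average log2 effect was -0.62 ± 0.14 (limma adjusted p 0.021), from a 1.71-fold lower signal in wild type and, in sfr6, a 1.38-fold lower one.

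CYP71B5 had signals of 91.5 in wild type light, 58.2 in wild type dark, 71.5 in sfr6 light and 47.6 in sfr6 dark. The dark arrays lay below the light arrays, and within each light condition sfr6 was the lower one. The average log2 effect was -0.62 ± 0.17 (limma adjusted p 0.037). The call was lost with the floor at the 60th percentile, at -0.48 and an adjusted p of 0.052.

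CYP71B29 went the other way. Its signals were 28.0 in wild type light, 58.1 in wild type dark, 29.8 in sfr6 light and 56.7 in sfr6 dark, so that both dark arrays exceeded both light arrays. The dark signal was 2.07-fold higher in wild type, and in sfr6 1.90-fold, with an average log2 effect of 0.99 ± 0.17 (limma adjusted p 0.0085).

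The other 7 tested genes did not pass for darkness. CYP71B34 was at 90.3 in wild type light, 99.0 in wild type dark, 105.8 in sfr6 light and 89.9 in sfr6 dark, an average log2 effect of -0.05 ± 0.17. CYP71B23 was at 37.2, 32.3, 22.3 and 24.0 in that order, also with an average effect of -0.05 ± 0.17. In neither gene did the dark arrays stand apart from the light arrays. CYP71B24 was at 32.7 in wild type light and 24.3 in wild type dark, and at 15.8 in sfr6 light and 29.8 in sfr6 dark, so the direction differed between the genotypes.

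The remaining 4 were over the floor on 1 array each. CYP71B37 read 36.1 in wild type light and 12.5 in wild type dark, at least 1.63-fold lower, and 20.5 and 9.07 in sfr6, both under the floor. It fell with the floor at the 20th percentile (average log2 effect -1.35, limma adjusted p 0.0094) and with no floor (-1.28, adjusted p 0.028). CYP71B36 read 22.5 in wild type light and between 11.2 and 13.7 on the other arrays. CYP78A9, known as a promoter of fruit and seed growth, read 23.1 in wild type light, 17.1 in wild type dark, 20.8 in sfr6 light and 13.3 in sfr6 dark. CYP84A4, an enzyme of arabidopyrone synthesis, read 32.5 in wild type dark, at least 1.47-fold higher than the 20.2 of wild type light, and 11.0 and 15.9 in sfr6.

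Taken one genotype at a time, with no test, 1 of 13 compared P450 genes (CYP71B29) was at least 2-fold higher in the dark in wild type, where 6.47% of all probe sets were. In wild type 3 of 13 (CYP71B26, CYP71B28 and CYP71B35) were at least 2-fold lower, where 7.19% of all were. In sfr6, 2 of 9 (CYP71B26 and CYP71B35) were at least 2-fold lower, where 6.87% of all were, and 0 of 9 were at least 2-fold higher, where 6.85% of all were. The median log2 response of the 13 tested genes was -0.43 in wild type and 0.00 in sfr6, beside -0.03 in both genotypes over all probe sets tested. The sfr6 median is held at 0 by 4 genes whose sfr6 signals were both under the floor. Of these, CYP71B36, CYP71B37 and CYP78A9 reached the floor in wild type light alone, so their wild-type response could only be a fall. CYP84A4 reached it in wild type dark alone, so its response could only be a rise. The medians therefore do not compare the genotypes on equal terms. On the deposited signals with no floor, 18 of 23 P450 genes were lower in the dark in wild type, where 56.4% of all probe sets were, and 14 of 23 in sfr6, where 56.1% were. In both genotypes 12 of 23 were lower, where 42.3% of all were. These counts include the 10 genes under the floor on all 4 arrays, for which no fold is given because the signals were too low. The shares over all probe sets include such low signals too.

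**Figure D2:**
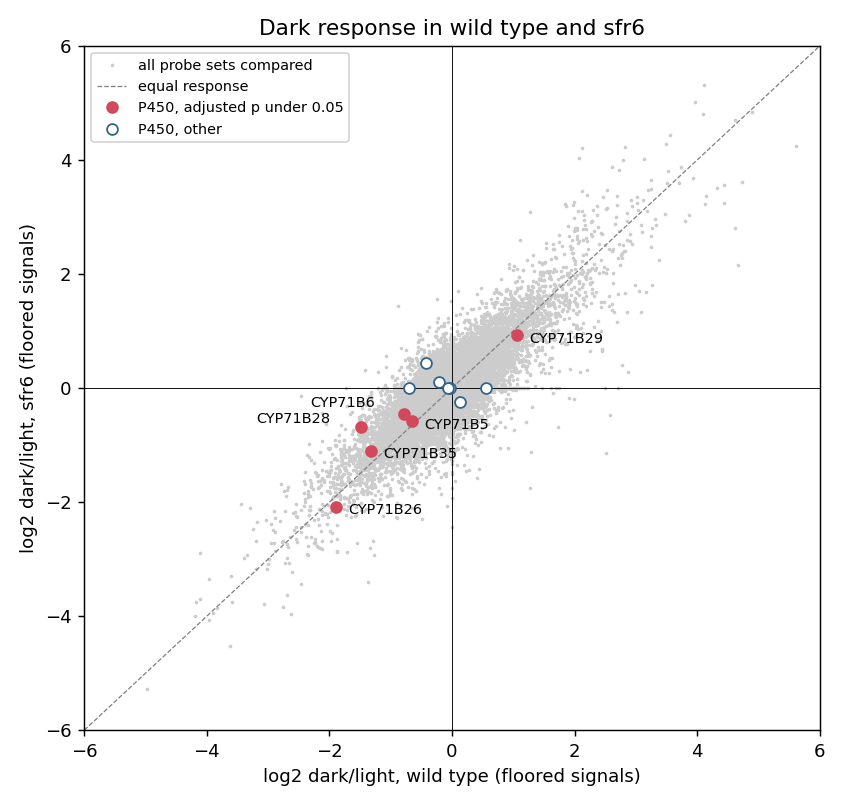
Log2 dark over light signal in wild type (x axis) and sfr6 (y axis) on floored signals, with all 15121 probe sets tested as grey dots. Filled circles are the 6 P450 genes that passed for darkness, open circles the other 7, and the dashed line marks an equal response. The 6 filled points lie in the lower left and the upper right, with CYP71B26 lowest and CYP71B29 highest.

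The next comparison sets neighbouring genes side by side. By RefSeq gene order, 17 of the 19 CYP71B members lie in 3 stretches. The longest, from AT3G26150 to AT3G26330, has 18 CYP71B genes, of which 11 are described here and 7 were tested. In it CYP71B26 and CYP71B35 fell, while CYP71B34, which lies between them and directly beside CYP71B35, had an effect of -0.05. CYP71B36 and CYP71B37 follow CYP71B35 directly and reached the floor in wild type light alone. At the other end of that stretch, CYP71B16, CYP71B21 and CYP71B22 were under the floor throughout, and CYP71B23 and CYP71B24 did not pass.

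In the stretch from AT1G13070 to AT1G13110, with 5 CYP71B genes, CYP71B28 and CYP71B29 are direct neighbours. CYP71B28 fell by 1.08 on the log2 scale and CYP71B29 rose by 0.99, the only pair of neighbours among the members in which one fell and the other rose. CYP71B27, at the edge of the same stretch, was under the floor on all 4 arrays. In the stretch from AT3G53280 to AT3G53305, with 4 CYP71B genes, CYP71B5 fell and the other members there, CYP71B30P directly beside it and CYP71B31 further along, were under the floor. The differences between neighbours were not tested. All 23 probe sets carry the plain name ending that the array uses for sets designed to match 1 gene, and hybridisation of related transcripts to the same probes was not tested.

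**Figure D3:**
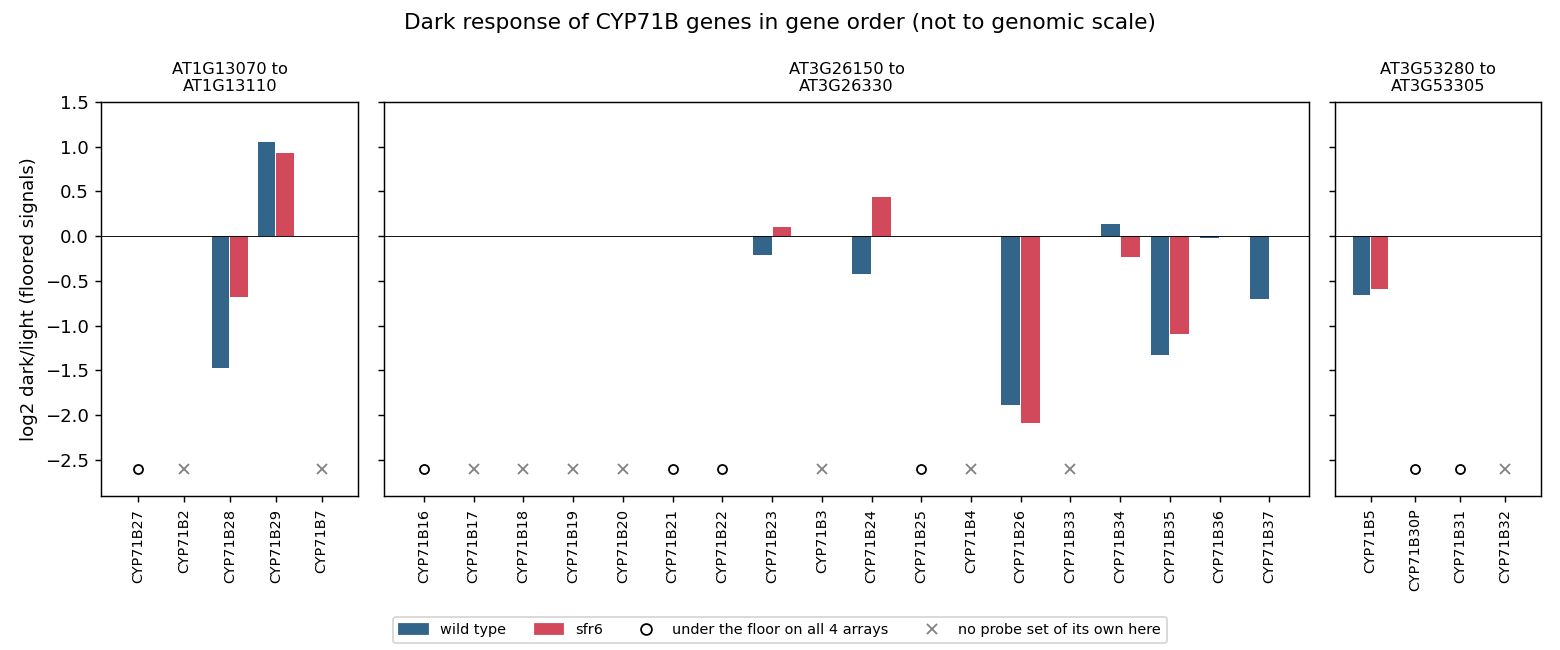
Log2 dark over light signal on floored signals (y axis) of CYP71B genes in 3 chromosomal stretches, in gene order along the x axis and not to genomic scale, with wild type bars left and sfr6 bars right of each position. Open circles mark genes under the floor on all 4 arrays, which have no bar. Crosses mark genes to which the platform annotation assigns no probe set of their own. Bars of opposite direction stand side by side for CYP71B28 and CYP71B29, and CYP71B26 has the longest bars.

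The second question is whether P450 genes differ between sfr6 and wild type. By limma 0 of 13 were higher in sfr6, where 0.417% of all probe sets were, and 0 of 13 were lower, where 0.86% of all were. Those shares depend on the scaling, as 963 of 15169 probe sets were higher and 201 lower with spike-in centring. At an unadjusted p under 0.05 there was 1, CYP71B23, where 19.8% of all probe sets were under it. In CYP71B23 the sfr6 signal was 1.67-fold lower in light and, in dark, 1.34-fold, giving an average log2 effect of -0.58 ± 0.17 (limma adjusted p 0.14). The other 12 had average genotype effects between -0.35 and 0.05.

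With no test, 0 of 12 compared P450 genes were at least 2-fold higher in sfr6 in light, where 1.01% of all probe sets were, and 0 were at least 2-fold lower, where 1.72% were. In dark 0 of 10 were higher, where 0.775% of all were, and 0 of 10 lower, where 1.67% were. The floor limited the fold of CYP71B24 in light (32.7 in wild type, 15.8 in sfr6), at least 1.48-fold lower in sfr6. It also limited that of CYP84A4 in dark (32.5 and 15.9), at least 1.47-fold lower. Both were 2-fold lower there with the floor at the 20th percentile. The dark response, with its direction counted, differed by 2-fold or more between the genotypes for 0 of 13, where 2.56% of all probe sets did. In 4 of the 13 the floor set the sfr6 response to 0. The largest such differences were those of CYP71B24, at 0.86 on the log2 scale (sfr6 minus wild type), and CYP71B28, at 0.80. On signals without a floor CYP71B24 and CYP71B36 differed by more than 2-fold. These differences have no residual degree of freedom and were not tested. A genotype effect that misses the threshold does not show that the genotypes are alike.

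Genes that are not P450s were also read from lists of known glucosinolate and phenylpropanoid genes. Their link to the CYP71B genes described above was not tested. Of 33 listed glucosinolate genes that are not P450s, 4 had a probe set of their own, 3 were tested and all 3 fell in darkness, where 17.8% of all probe sets tested did. The lists were chosen with earlier results of these data known, so such counts are not independent of the data. BCAT4, the aminotransferase that starts methionine-derived glucosinolates, had signals of 236.1 in wild type light, 61.0 in wild type dark, 182.0 in sfr6 light and 31.3 in sfr6 dark, an average log2 effect of -2.25 ± 0.19 (limma adjusted p 0.00077). UGT74B1, which glucosylates the thiohydroximate intermediate, fell by 1.33 on the log2 scale, and GSTU20, a glutathione transferase of that pathway, fell by 2.40. GSTU20 was also higher in sfr6, by 0.86 on the log2 scale (limma adjusted p 0.048), a call that was lost with the floor at the 60th percentile, with quantile normalization and without the intensity trend (adjusted p 0.11, 0.059 and 0.12). The fourth, AOP3, was under the floor on all 4 arrays, as was the P450 member of that pathway, CYP79A2.

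Of 22 listed phenylpropanoid genes that are not P450s, 3 had a probe set of their own and 1 fell, beside the same 17.8%. HCT, the acyltransferase that makes the substrate of the lignin P450 CYP98A3, had signals of 672.4 in wild type light, 274.6 in wild type dark, 574.5 in sfr6 light and 315.7 in sfr6 dark, an average log2 effect of -1.08 ± 0.13 (limma adjusted p 0.0025). ALDH2C4, which forms ferulic and sinapic acid, and CCR2, a cinnamoyl-CoA reductase, did not pass, at -0.39 and -0.19. None of the 9 listed electron donors of P450s is analysed here.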

How the data were processed

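RNA of 4 samples, 1 for each of 4 groups, was measured on Affymetrix ATH1 arrays. The deposited intensity values are linear MAS5 signals, as the submitters' processing notes name that method with no version. After trimming 2% at either end, each array's mean was 100, so the arrays share 1 scale. Of the probe sets, 64 controls were left out, which left 22746. Genes came from the platform annotation: 13513 probe sets had 1 gene, 503 several and 8730 none; all 23 P450 symbols matched RefSeq. Signals under the 40th percentile (22.1) were set to it, log2 was taken, and probe sets at or over it on at least 1 array were tested (15121). An additive model of darkness and genotype was fitted with limma 3.58.1 in R 4.3.3 (eBayes with intensity trend, Benjamini-Hochberg adjusted p under 0.05). "Rose" and "fell" mean past that threshold. Pairwise counts start at 2-fold and have no test. The fit was tested on simulated data, where it missed some 2-fold effects and the share of false calls was above the nominal 0.05. Figures used matplotlib 3.10.9. Named were all P450 genes that passed or differed by 2-fold, the rest by their values, and listed genes that are not P450s. The members and lists were chosen with earlier results of these data known. Alternatives were other floors, no floor with log2(signal + 1), quantile, median and spike-in scaling, no intensity trend, and only probe sets over the floor on all 4 arrays.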

Additional observations from a re-analysis of the deposited data

Results flagged for a closer look

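With 1 array a group, a difference of direction between genotypes or light conditions could only be read from the values, and none of it was tested. The value given for each gene is the log2 dark response in sfr6 minus that in wild type, on floored signals. The dark response had opposite directions in wild type and sfr6 for 3 of 13 tested genes, where 17.5% of all probe sets tested had. These were CYP71B24 (0.86), CYP71B23 (0.31) and CYP71B34 (-0.37). The difference between sfr6 and wild type had opposite directions in light and dark for 6 genes of 13, where 30.0% of all probe sets tested had. Besides CYP71B24 and CYP71B34 these were CYP71B28 (0.80), CYP71B6 (0.32), CYP71B35 (0.23) and CYP71B29 (-0.13). For CYP71B6 the dark signals differed by 1.001-fold. The genotypes also differed little in light and dark for CYP71B29 (1.07-fold and 1.02-fold) and CYP71B35 (1.09-fold and 1.07-fold). The 4 tested genes with both sfr6 signals under the floor could not show opposite directions in either comparison. The shares over all probe sets tested include such cases too. The sfr6 light signal of CYP71B24, 15.8, lay under the floor, so its value depends on it.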

How the results depend on the processing

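Arrays could not be paired by replicate, because each group has 1 array and the groups share fewer than 2 replicate numbers. The additive model already compared dark with light within each genotype. Leaving out an array leaves no residual degree of freedom. The dark effects of the 6 named genes kept their direction under all 8 alternatives in which they were tested, and their call in 46 of 47; CYP71B5 lost it with the floor at the 60th percentile (-0.48, adjusted p 0.052). CYP71B29 was not tested at that floor, because it was not over it on any array. With the floor at the 20th percentile, 18 P450 genes were tested. Of these, 2 rose (CYP71B22 and CYP71B29), where 2438 of all 19958 probe sets tested did. At that floor 6 of the 18 fell (CYP71B37 besides the 5), where 3086 of all did. In wild type 2 of the 18 were 2-fold higher and 5 were 2-fold lower in the dark. In sfr6, 4 of the 18 were 2-fold lower in the dark. Of 17 compared, 1 was 2-fold lower in sfr6 in light (CYP71B24) and 1 in dark (CYP84A4). The response differed for 2 of the 18. With the floor at the 60th percentile, 6 P450 genes were tested and 0 rose, where 1764 of all 10622 probe sets tested did. Of the 6, 0 were 2-fold higher in the dark in wild type, while 1 was 2-fold lower in the dark in sfr6. With no floor, 6 of 13 fell (again with CYP71B37), where 3106 of all 15121 probe sets tested did. Without it 1 of 12 compared was 2-fold lower in sfr6 in light (CYP71B24), and 2 of 13 differed in response. With quantile normalization, 1 of 9 compared was 2-fold higher in the dark in sfr6 (CYP71B29). For these 2-fold counts the shares over all probe sets under the alternatives are not given. No genotype effect of the 6 passed in any setting, and their sign turned with spike-in centring for CYP71B26 (0.055), CYP71B28 (0.003), CYP71B35 (0.165) and CYP71B6 (0.024), and for CYP71B29 with quantile normalization (-0.011) and median centring (-0.016). With spike-in centring the log2 difference between sfr6 and wild type had a median over all probe sets tested of 0.22 in light (0.01 without it) and 0.15 in dark (0.02 without it). Over all probe sets, 63 were higher and 130 lower in sfr6 by limma, 963 and 201 with spike-in centring, 0 and 3 with the floor at the 60th percentile and 0 and 2 without the intensity trend. Signals under the floor on at least 1 array limit what could be compared for 15 of the 23 genes.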
